A study of Mus musculus with 12 samples.

Results

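The genes of the CD3 chains and of the first signaling steps of the T-cell receptor (TCR) were followed across the 4 groups of the study. The 9 genes, Cd3e, Cd3d, Cd3g, Cd247, Lck, Fyn, Zap70, Lat and Lcp2, were chosen by symbol from the 50600 gene IDs that each library lists. RNA was sequenced from 12 mice, 3 in each group. Ctrl stands for thymocytes of DNMT1 fl/fl mice, which carry a loxP-flanked Dnmt1 gene without Cre recombinase (male, 20 to 25 wk). KO stands for thymocytes of DNMT1 fl/fl CD4-CRE mice, in which Cre is driven by Cd4 regulatory sequence (20 to 21 wk, 1 female and the others male). ALK stands for T cell lymphoma cells of NPM-ALK+ mice (male, 22 to 31 wk), and ALKKO for thymocytes of NPM-ALK+, DNMT1 fl/fl CD4-CRE mice (male, 19 to 25 wk). NPM-ALK is a human fusion tyrosine kinase, expressed here from the Cd4 promoter and enhancer. The labels name no loxP-flanked Dnmt1 gene for the ALK mice, so ALK differs from Ctrl in transgene, in tissue (tumor or thymus) and, by the labels, in the Dnmt1 allele, and these cannot be told apart. The tissue was homogenized whole, without sorting.

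On T cells the antigen-binding TCR chains have no signaling part of their own and depend on the CD3 epsilon, delta, gamma and zeta chains, which carry the tyrosine motifs (ITAMs) inside the cell. The kinases LCK and FYN phosphorylate these motifs, ZAP-70 docks on them and phosphorylates the membrane scaffold LAT, and SLP-76, the product of Lcp2, gathers enzymes onto it. In the thymus this relay, first with the pre-TCR and then with the TCR, decides which thymocytes go on to mature, and NPM-ALK-driven lymphomas are known for losing much of it.

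Cd3g, Cd3d and Cd3e are neighbors on chromosome 9 of GRCm38, within 40056 bases. Cd3g and Cd3d are transcribed away from each other from starts 1355 bases apart, and the 3' end of Cd3d lies 11401 bases from that of Cd3e. Because these neighbors moved unequally in the tumors, their promoters are shown with those of Cd247, whose tumors were the most alike of the called genes, and Fyn, which was higher. The sequences are the 250 bases before each RefSeq start (GRCm38.p6), written 5′ to 3′ on the strand of the gene, with CpG dinucleotides, the sites that DNMT1 keeps methylated, in capitals.
Cd3g (chr9:44980432-44980681, minus strand): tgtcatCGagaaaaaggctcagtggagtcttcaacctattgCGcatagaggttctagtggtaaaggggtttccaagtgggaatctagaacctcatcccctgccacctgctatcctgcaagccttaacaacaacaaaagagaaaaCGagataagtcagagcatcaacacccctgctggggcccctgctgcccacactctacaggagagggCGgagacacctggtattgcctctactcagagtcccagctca
Cd3d (chr9:44981536-44981785, plus strand): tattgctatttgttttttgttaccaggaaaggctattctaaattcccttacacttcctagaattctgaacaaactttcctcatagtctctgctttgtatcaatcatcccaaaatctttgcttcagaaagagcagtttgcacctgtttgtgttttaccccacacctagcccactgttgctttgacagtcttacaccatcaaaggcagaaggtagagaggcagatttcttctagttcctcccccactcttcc
Cd3e (chr9:45009612-45009861, minus strand): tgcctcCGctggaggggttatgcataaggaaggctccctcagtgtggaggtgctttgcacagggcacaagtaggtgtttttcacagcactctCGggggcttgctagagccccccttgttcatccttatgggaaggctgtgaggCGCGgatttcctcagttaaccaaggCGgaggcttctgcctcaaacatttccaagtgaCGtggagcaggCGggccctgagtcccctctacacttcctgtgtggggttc
Cd247 (chr1:165788431-165788680, plus strand): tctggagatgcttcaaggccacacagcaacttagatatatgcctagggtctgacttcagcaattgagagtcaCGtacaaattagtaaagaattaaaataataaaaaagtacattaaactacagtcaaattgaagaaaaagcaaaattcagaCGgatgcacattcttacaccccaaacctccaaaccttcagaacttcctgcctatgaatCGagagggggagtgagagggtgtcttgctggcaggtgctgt
Fyn (chr10:39369549-39369798, plus strand): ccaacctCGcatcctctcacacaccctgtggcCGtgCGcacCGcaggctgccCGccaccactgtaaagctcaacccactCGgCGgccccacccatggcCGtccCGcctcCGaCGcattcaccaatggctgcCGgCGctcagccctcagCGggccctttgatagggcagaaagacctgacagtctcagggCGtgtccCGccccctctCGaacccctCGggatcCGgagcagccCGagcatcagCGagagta

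The Cd3d window held 0 CpG, that of Cd247 held 3, that of Cd3g 4 and that of Cd3e 7, against a median of 6 over the 32851 promoter windows of the table. Fyn held 21, and 14.8% of all windows held more. Lcp2, which was lower in the tumors like Cd3g and Cd247, also held 0 CpG, and 7.87% of all windows held none. Entries were found for all 9 genes, with several alternative starts for Lck and Zap70. Letters bound by T-cell factor families were counted on both strands. GGAA, the core of ETS sites, occurred 6 times in the Cd3d window, 5 in Cd3e, 2 in Cd3g, 1 in Cd247 and 0 in Fyn, and 93.5% of all windows held at least 1. The E-box letters CANNTG occurred 3 times in Cd3g, 2 in Cd247, 1 in Cd3d, 1 in Cd3e and 0 in Fyn, and were in 66.2% of all windows. CTTTGA, read by TCF factors, occurred 2 times in Cd3d and 1 in Fyn, and was in 13.8% of all windows. These are matches of letters only, and no binding or methylation was measured in these libraries.

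The reads assigned to genes numbered 12473857 to 18864327 per library (median 15262212), and a floor of 3 counts corresponded to 0.159 to 0.241 CPM (counts scaled to a common library total), which covers counting error only. The 9 genes had 26 to 46574 reads per library, so the depth limited none of their values. The libraries followed their labels for Dnmt1 (400.0 to 487 CPM in Ctrl, 206 to 244 in KO, 379 to 788 in ALK, 205 to 244 in ALKKO) and for Alk (up to 0.431 CPM in Ctrl and KO, 34.9 to 55.0 in ALK and ALKKO). Much Dnmt1 RNA thus remained in KO and ALKKO. The edgeR test of Dnmt1 over Ctrl did not pass in KO (log2 fold change -0.95, adjusted p = 0.787) or ALKKO (-0.99, adjusted p = 0.259). KO replicate 2, the female, stood apart from every other thymus library. Its summed B cell markers reached 2328 CPM, against 54.9 to 106 in the other thymus libraries. Its summed thymocyte markers were at 3389 CPM, against 6541 to 9308, and its thymic epithelial markers at 126 CPM, against 757 to 1163. The main results of the 9 genes and the pathway counts are also given without it. Of the 10 thymocyte markers, Rag1 was listed at 0 in all 12 libraries.

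The CD3 chain genes did not move together in the tumors. Relative to Ctrl thymocytes, Cd247 and Cd3g were lower in ALK and past the test, Cd3d was at 0.513% and 3.06% of the Ctrl mean in 2 of the 3 tumors without passing the test, and Cd3e did not pass it. All values are CPM after TMM normalization. Genes count as called where edgeR's quasi-likelihood test gave an adjusted p under 0.05 (Benjamini-Hochberg, 16052 genes) and the log2 fold change was beyond 1 in either direction. In whole tissue, fewer T-lineage cells and less RNA per cell cannot be told apart.

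Cd247 encodes CD3 zeta, which carries the most ITAMs of the complex (gene at chr1:165788681-165877277, plus strand). It was at 689, 677 and 560.0 CPM in Ctrl, and at 650.2, 267 and 528 CPM in KO. The ALK tumors had 176, 190.3 and 169 CPM, and the ALKKO thymi 501, 500.5 and 545 CPM. The 3 tumors lay close together and below every other library, and the ALKKO thymi lay just below the Ctrl thymi without overlap. The log2 fold change of ALK over Ctrl was -1.85 (SE 0.266, adjusted p = 0.00124). Of its 5329 exon bases, 3007 are shared with Pou2f1 on the opposite strand (67.2 to 112 CPM over the libraries) and 206 with Gm16565 on the same strand (0.960 to 7.32 CPM), and the strand setting of the counting is not given in the sources used here, so reads of the shared part may be missing or misplaced.

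Cd3g encodes CD3 gamma (chr9:44969572-44980431, minus strand). It was at 562, 569 and 506 CPM in Ctrl and at 549, 239 and 531 CPM in KO. In ALK it was at 265, 34.7 and 138 CPM, and in ALKKO at 477, 394 and 516 CPM. All 3 tumors lay below Ctrl and ALKKO, but they spread widely among themselves, with ALK replicate 1 above KO replicate 2. The log2 fold change of ALK over Ctrl was -1.90 (SE 0.569, adjusted p = 0.0299). The call was lost without any 1 of the Ctrl libraries (adjusted p = 0.0628 to 0.0718) or without ALK replicate 3 (adjusted p = 0.0631), while the log2 fold change stayed between -1.95 and -1.88 in these fits.

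Cd3d encodes CD3 delta (chr9:44981786-44987339, plus strand). It was at 467, 468 and 392 CPM in Ctrl and at 364, 218 and 390.2 CPM in KO. In ALK it was at 212, 2.27 and 13.5 CPM, and in ALKKO at 324, 378 and 413 CPM. ALK replicate 1 kept 47.9% of the Ctrl mean, ALK replicate 2 kept 0.513% and ALK replicate 3 kept 3.06%, so the tumors differed from each other by more than any of the thymi did. With this spread the log2 fold change of -2.54 (SE 1.11) did not pass (adjusted p = 0.108). Without ALK replicate 1 it was -5.80 and passed (adjusted p = 0.000478).

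Cd3e encodes CD3 epsilon (chr9:44998740-45009627, minus strand). It was at 587, 492 and 417 CPM in Ctrl and at 470.4, 213 and 445 CPM in KO. The tumors had 308, 399 and 324 CPM, and ALKKO 452, 363 and 529 CPM. The tumors lay below the lowest Ctrl library by a narrow margin and overlapped ALKKO and KO. The log2 fold change of ALK over Ctrl was -0.54 (95% confidence interval -1.16 to 0.08, adjusted p = 0.168).

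The make-up of the CD3 transcripts differed between tumors. Per kilobase of exon, Cd3d made up 44.9% to 46.7% of the summed level of Cd3e, Cd3d and Cd3g in Ctrl, 41.5% to 48.9% in KO and 41.0% to 49.9% in ALKKO. ALK replicate 1 had a like share of 42.7%, whereas Cd3d made up 1.14% in ALK replicate 2 and 5.78% in ALK replicate 3. The share of Cd3e was 21.6% to 25.1% in Ctrl, 27.6% in ALK replicate 1, 89.2% in ALK replicate 2 and 61.5% in ALK replicate 3. The thymi of all genotypes, KO replicate 2 among them, held the 3 genes in nearly constant proportion, and 1 tumor of 3 did so as well.

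**Figure D1:**
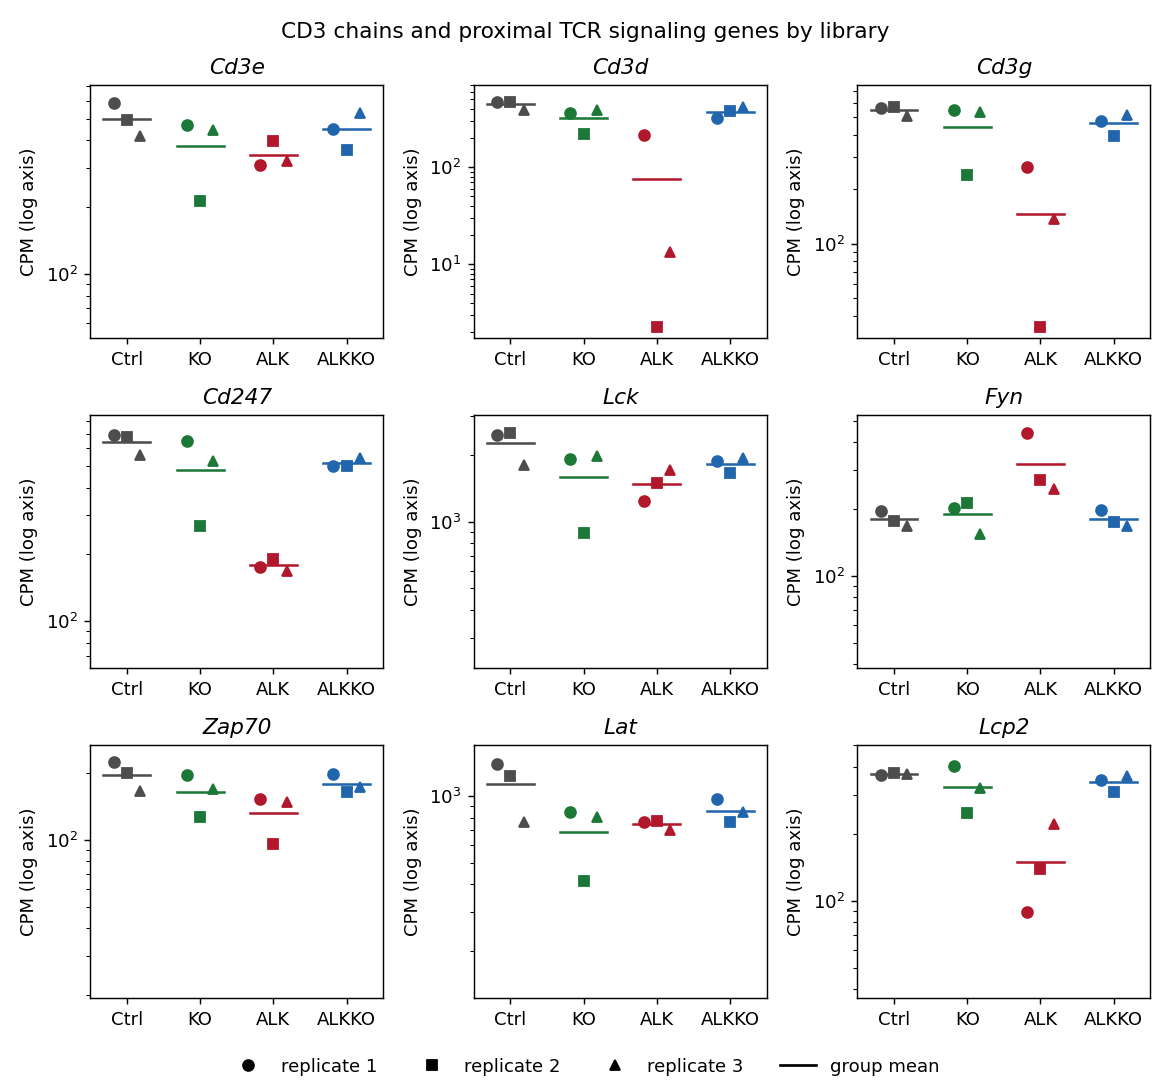
TMM-normalized CPM of each gene in every library (y, log axis) by group (x), with a symbol for each replicate number and a line at the group mean. The 3 ALK tumors lie below the Ctrl libraries for Cd247, Cd3g, Cd3d and Lcp2 and, by a narrower margin, for Cd3e, Lck and Zap70. They lie above Ctrl for Fyn and overlap it for Lat. Cd3d falls to 2.27 and 13.5 CPM in 2 tumors. The low KO point is replicate 2 in every panel but that of Fyn, where replicate 2 is the highest KO point.

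Of the kinases, Fyn was higher in the tumors at an adjusted p under 0.05 and Lck and Zap70 did not pass the test. Fyn, the SRC-family kinase that shares the task of LCK at the receptor (chr10:39368855-39565381, plus strand), was at 196, 176 and 168 CPM in Ctrl and at 202, 214 and 154 CPM in KO. It reached 438, 269.9 and 247 CPM in ALK, and was in ALKKO at 198, 175 and 167 CPM. Every tumor lay above all 9 thymus libraries. The log2 fold change of ALK over Ctrl was 0.82 (SE 0.214, adjusted p = 0.0171), under the fold threshold of a call. The adjusted p rose above 0.05 without Ctrl replicate 2 (0.0629), without Ctrl replicate 3 (0.0632) and with only the compared groups in the fit (0.0552), and without ALK replicate 1 the log2 fold change was 0.53 (adjusted p = 0.0309).

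Lck encodes the SRC-family kinase bound to CD4 and CD8 (chr4:129548344-129573641, minus strand). It was at 2460.2, 2496 and 1792 CPM in Ctrl and at 1907, 887 and 1971 CPM in KO. Its level was 1235, 1491 and 1703 CPM in ALK, and in ALKKO 1868, 1648 and 1940.2 CPM. It was the most abundant of the 9 genes in every group, also per kilobase of exon. The tumors lay just below Ctrl, with a log2 fold change of -0.61 (95% confidence interval -1.24 to 0.02, adjusted p = 0.130).

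Zap70 encodes the kinase that docks on phosphorylated ITAMs (chr1:36761798-36782818, plus strand). It was at 223, 199.6 and 165 CPM in Ctrl and at 196, 126 and 169.7 CPM in KO. The 3 tumors had 153, 95.4 and 147 CPM, and the 3 ALKKO thymi 197, 164 and 173 CPM. All tumors lay below the lowest Ctrl library, with a log2 fold change of -0.57 (95% confidence interval -1.04 to -0.10, adjusted p = 0.0674).

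The 2 adaptors parted. Lcp2, which encodes SLP-76 (chr11:34046920-34092295, plus strand), was at 366, 376 and 372.3 CPM in Ctrl and at 406, 247 and 323 CPM in KO. In ALK it was at 88.6, 139.5 and 221 CPM, and in ALKKO at 351, 308 and 363 CPM. The Ctrl libraries were nearly equal, every tumor lay below all thymi, and ALK replicate 1, which kept the most Cd3d, had the least Lcp2. The log2 fold change was -1.31 (SE 0.288, adjusted p = 0.00801).

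Lat, the membrane scaffold (chr7:126363824-126369570, minus strand), was at 1392, 1231 and 760.4 CPM in Ctrl and at 844, 414 and 806 CPM in KO. In ALK it was at 764, 772 and 700.1 CPM, and in ALKKO at 968, 766 and 846 CPM. It was the 1 gene of the 9 whose tumors overlapped Ctrl, through Ctrl replicate 3. The log2 fold change was -0.60 (95% confidence interval -1.22 to 0.03, adjusted p = 0.134).

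In all, 3 of the 9 genes were called lower in ALK and 0 higher, where 12% of all tested genes were called lower and 8.41% higher. By the adjusted p alone 3 were lower and 1 was higher, against 14.7% and 14.8% of all genes. The 3 tumors lay below the 3 Ctrl libraries without overlap for 7 genes and above them for 1, against 25.1% and 21.3% of all genes. The median log2 fold change of the 9 genes was -0.61, and that of all tested genes was 0.05. Without KO replicate 2, which enters through the shared estimate of spread, 3 genes were called again, and by the adjusted p alone 7 were lower and 1 was higher, where 17.9% of all genes were lower and 15.9% higher. The added ones were Cd3e (adjusted p = 0.0341), Lck (adjusted p = 0.0187), Zap70 (adjusted p = 0.0329) and Lat (adjusted p = 0.0383), with log2 fold changes of -0.56, -0.63, -0.60 and -0.62.

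Markers of several cell types moved with the same comparison. The thymocyte markers summed to 1135 to 2534 CPM in ALK and 7946 to 9308 in Ctrl, with 6 of 9 tested markers called lower and 0 higher. Thy1, a surface protein of the T lineage, was at 955 to 1480.3 CPM in the tumors, below the 1897 to 2501 of Ctrl (log2 fold change -0.89, adjusted p = 0.0579), and Cd5 was at 0.786 to 2.22 CPM, against 231 to 275 in Ctrl. Cd2 was the 1 tested thymocyte marker with a log2 fold change above 0 (0.67, adjusted p = 0.657). It was at 1.88, 394.0 and 394.1 CPM in ALK, against 156 to 179 in Ctrl. The stromal and endothelial markers summed to 895 to 1532 CPM in ALK and 321 to 469 in Ctrl (2 of 8 higher). The called ones were Col1a1 (702, 381 and 243 CPM in ALK, 14.2 to 28.6 in Ctrl) and Col1a2 (575, 408 and 303 CPM, against 32.3 to 47.4). Of the 8 markers, 3 lay above Ctrl without overlap and 1 below, and the others overlapped. The lower one was Dcn (23.0 to 45.6 CPM, against 83.2 to 134 in Ctrl, log2 fold change -1.62), which was not called. The thymic epithelial markers summed to 30.6 to 283 CPM in ALK and 1093 to 1163 in Ctrl (4 of 7 lower). The B cell markers summed to 6.02 to 16.7 CPM in ALK and 58.5 to 105 in Ctrl (2 of 7 lower). The myeloid, erythroid and NK cell sums of the tumors were 513 to 1345, 27.3 to 750.1 and 65.4 to 437 CPM, against 768 to 853, 388 to 584 and 54.8 to 66.7 in Ctrl, with 1 of 11, 0 of 5 and 3 of 5 tested markers lower and 0, 0 and 1 higher. The NK cell sum of the tumors was nearly all Gzma (110, 65.0 and 437 CPM). Ncr1, Klrb1c, Eomes and Klre1 were each at most at 0.349 CPM in the tumors. The study lists Gzma among the genes raised in ALK and in ALKKO over Ctrl. Among the myeloid markers Itgam was listed at 0 in all libraries. The part of cell make-up in the differences above was not tested.

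Per kilobase of exon the order in Ctrl ran from Lck (mean RPKM, CPM per kilobase of exon, of 768) over Lat (408), Cd3d (244), Cd3g (167), Cd3e (122), Cd247 (120.5), Lcp2 (83.4) and Zap70 (65.5) to Fyn (41.2). Cd3e and Cd247 were the only neighbors in this order whose libraries overlapped. In ALK the order was Lck (504), Lat (269), Cd3e (84.2), Fyn (73.0), Cd3g (44.6), Zap70 (44.1), Cd3d (41.9), Lcp2 (33.5) and Cd247 (33.5), and from Cd3e downward each gene overlapped its neighbor. Fyn thus went from the last place in Ctrl to the fourth in ALK. In KO and in ALKKO the order was the same as in Ctrl.

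Set against the thymi that carry both the transgene and the Dnmt1 deletion, the tumors showed the same 3 genes as lower. In ALK over ALKKO the log2 fold change was -1.53 for Cd247 (SE 0.264, adjusted p = 0.00292), -1.66 for Cd3g (SE 0.565, adjusted p = 0.0498) and -1.19 for Lcp2 (SE 0.287, adjusted p = 0.0127). Fyn was higher by 0.82 (SE 0.214, adjusted p = 0.0179), which was lost without ALKKO replicate 2 (adjusted p = 0.0639), without ALKKO replicate 3 (adjusted p = 0.0722) and with only the compared groups (adjusted p = 0.0699). Without KO replicate 2 the adjusted p was 6.06e-05 for Cd247, 0.0367 for Cd3g, 0.00880 for Lcp2 and 0.0195 for Fyn. Thus 3 of 9 genes were called lower, against 12.6% of all genes, and 0 higher, against 7.03%. By the adjusted p alone 3 were lower and 1 higher, against 14.7% and 13.4%. The groups did not overlap for 5 genes that were lower and 1 that was higher, against 23.7% and 19.5% of all genes. Both comparisons use the same 3 tumors. The call of Cd3g was lost without any 1 of the ALKKO libraries (adjusted p = 0.0802 to 0.113), without ALK replicate 2 (adjusted p = 0.0502) or without ALK replicate 3 (adjusted p = 0.0943). That of Lcp2 fell under the fold threshold without ALK replicate 1 (log2 fold change -0.90).

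Among the thymi, 0 of the 9 genes were called by edgeR or DESeq2. In KO over Ctrl, where 0.0187% of all genes were called, 1 of the 9 genes had an unadjusted p under 0.05, against 886 of all 16052 genes. This 1 gene was Lat, with a log2 fold change of -0.71 (95% confidence interval -1.34 to -0.09, adjusted p = 0.864). The log2 fold changes of the others ran from -0.50 for Lck to 0.08 for Fyn. KO replicate 2 had 36.7% of the Ctrl mean for Lat, 42.8% for Cd3e and 118.7% for Fyn, and its thymocyte marker sum was lower as well. For Lat the other KO libraries had 74.8% and 71.4%, within the range of Ctrl. Without it the log2 fold change was -0.45 for Lat, -0.12 for Cd3e and -0.01 for Cd3g. In ALKKO over Ctrl, where 0.181% of all genes were called, 0 of the 9 genes had an unadjusted p under 0.05, against 510 of all 16052 genes. The log2 fold changes there ran from -0.39 for Lat to 0.00373 for Fyn. Cd247 and Lcp2, 2 of the 9 genes, lay below Ctrl without overlap, against 7.56% of all genes, with 95% confidence intervals of -0.89 to 0.25 and -0.75 to 0.50. In ALKKO over KO, where 0.00623% of all genes were called, the log2 fold changes ran from -0.07 for Fyn to 0.32 for Lat. Without KO replicate 2 they ran from -0.23 for Cd3g to 0.06 for Lat, so that all but Lat turned their sign.

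**Figure D2:**
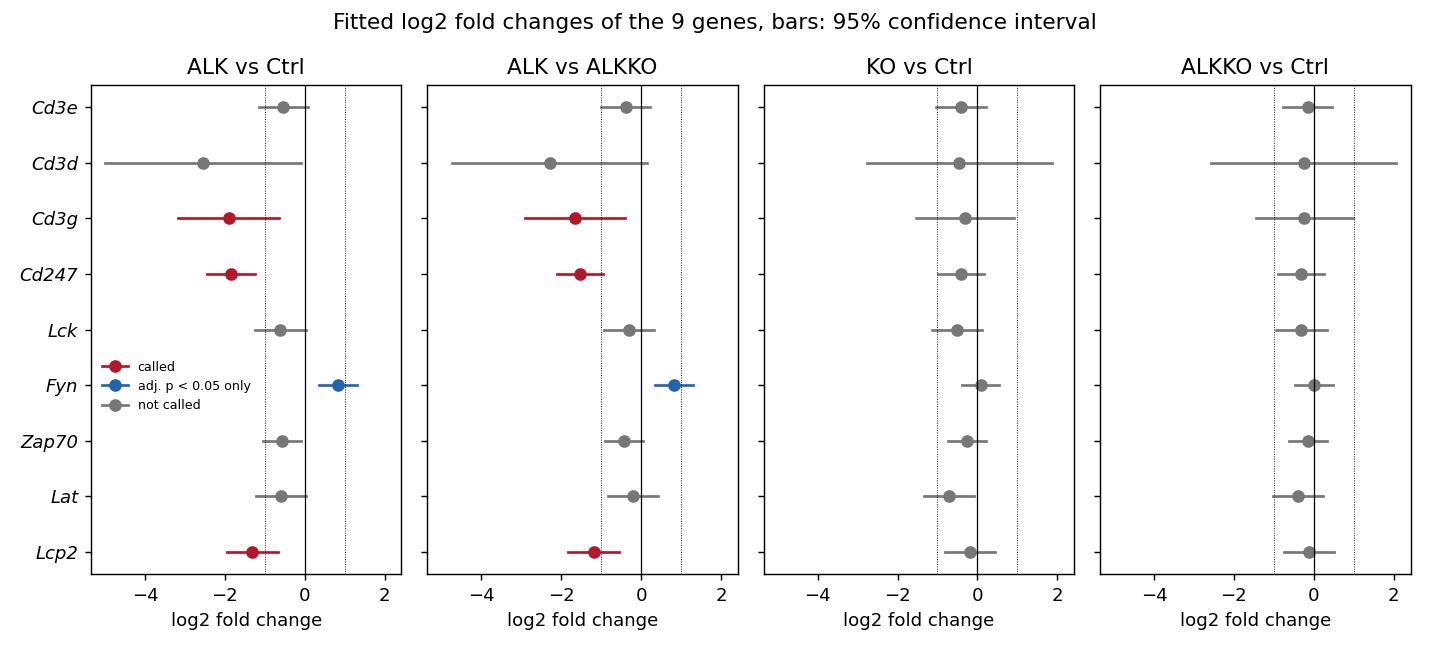
Log2 fold changes (x) of the 9 genes (y) in 4 comparisons, with points at the fitted value and bars for the 95% confidence interval. Dotted lines mark the fold threshold, and Cd3g, Cd247 and Lcp2 are past it and called in ALK over Ctrl and over ALKKO, while every interval of KO over Ctrl and ALKKO over Ctrl holds 0 except that of Lat in KO over Ctrl (-1.34 to -0.09).

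Whether the difference between transgenic and other mice depended on the Dnmt1 genotype was tested as an interaction, the log2 fold change of ALK over Ctrl minus that of ALKKO over KO. Only Cd247 was called, with a log2 difference of -1.94 (SE 0.368, adjusted p = 0.0124), where 5.62% of all genes were called lower and 3.31% higher. Its log2 fold change was -1.85 without the deletion and 0.10 with it, the latter being -0.19 without KO replicate 2. The log2 difference was then -1.68 (adjusted p = 0.00111), where 7.13% of all genes were called lower and 2.64% higher. Lcp2 was at -1.38 (SE 0.402, adjusted p = 0.0534) and Cd3g at -1.97 (SE 0.785, adjusted p = 0.134). Without ALK replicate 1 the interaction of Cd3d (-5.99, adjusted p = 0.00185), Cd3g (-2.73, adjusted p = 0.0271) and Lcp2 (-1.10, adjusted p = 0.0367) passed as well. Without ALK replicate 3, Lcp2 (-1.79, adjusted p = 0.00790) and Fyn (1.03, adjusted p = 0.0395) passed. Without KO replicate 1 Lcp2 did (-1.60, adjusted p = 0.0448). The ALK mice are the only ones whose sample is a tumor, so genotype and tumor cannot be told apart in this term.

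The partners of the CD3 chains in the receptor differed from tumor to tumor too. Trac, the constant part of the TCR alpha chain, was at 5.85, 6.55 and 298 CPM in ALK, against 375 to 516 in Ctrl. Trbc1, a constant part of the beta chain, was at 1.68, 839 and 229.7 CPM, against 788 to 1118 in Ctrl. Ptcra, which encodes the pre-TCR alpha chain of immature thymocytes, was at 424, 142 and 32.5 CPM, against 46.3 to 49.0 in Ctrl. No tumor kept all chains near the Ctrl level. ALK replicate 1 had Cd3d and Cd3g at 47.9% and 48.6% of the Ctrl mean with Trac at 1.28% and Trbc1 at 0.169%. ALK replicate 2 had Trbc1 at 84.3% with Cd3d at 0.513%, Cd3g at 6.37% and Trac at 1.44%. ALK replicate 3 had Trac at 65.5% with Cd3d at 3.06%, Cd3g at 25.3% and Trbc1 at 23.1%. None of Trac (log2 fold change -2.14, adjusted p = 0.182), Trbc1 (-1.48, adjusted p = 0.367) and Ptcra (2.07, adjusted p = 0.0595) passed the test of ALK over Ctrl. Trbc2, a near-identical constant part, was called lower (log2 fold change -1.59, SE 0.343, adjusted p = 0.00740). Reads that align to both Trbc1 and Trbc2 are in the count of neither. Trat1, which encodes a transmembrane adaptor associated with the CD3 complex, was called lower as well. Trat1 was at 4.50, 0.175 and 0.704 CPM in ALK, against 83.5 to 101 in Ctrl (log2 fold change -5.63, SE 0.829, adjusted p = 0.00134). Among these 5 receptor partners, 2 were called lower and 0 higher in ALK over Ctrl. In ALK over ALKKO 2 were called lower and 1 higher, against 12.6% and 7.03% of all genes. The higher one was Ptcra (log2 fold change 2.33), at 26.8 to 46.8 CPM in ALKKO, a range that holds ALK replicate 3.

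**Figure D3:**
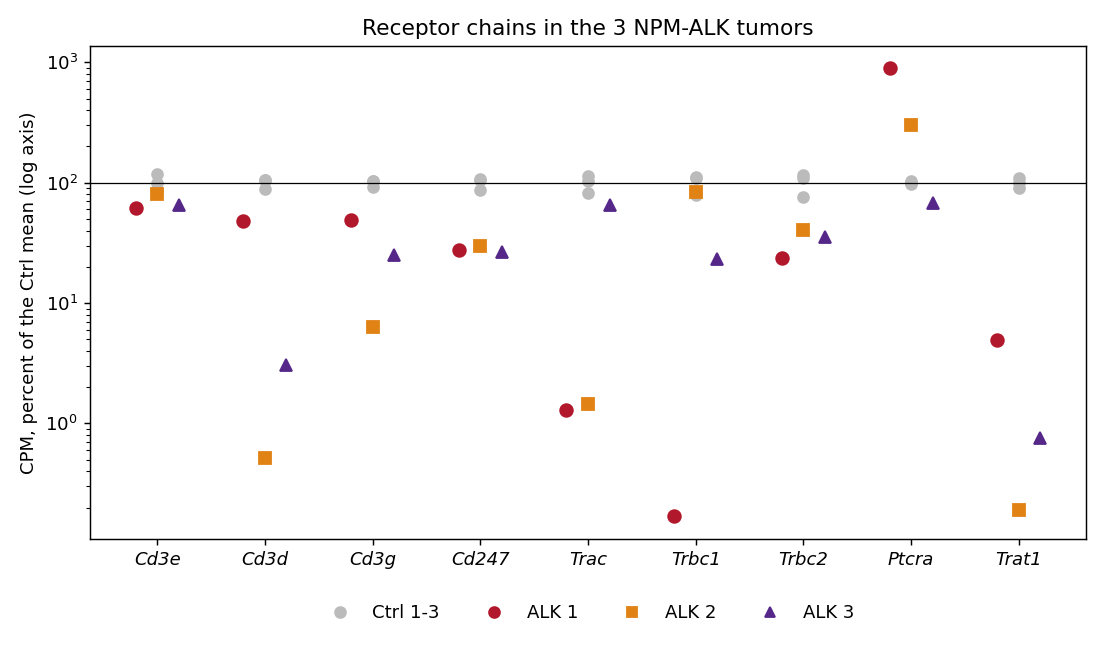
Level of each receptor chain gene (x) in the 3 ALK tumors and the 3 Ctrl libraries as a percent of the Ctrl mean (y, log axis). Under 10% are Trac, Trbc1 and Trat1 in ALK 1, Cd3d, Cd3g, Trac and Trat1 in ALK 2, and Cd3d and Trat1 in ALK 3, while Cd247 is between 26.3% and 29.6% in all 3.

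Of 60 other genes of the pathway, 59 were tested, and 15 were called lower and 1 higher in ALK over Ctrl, with a median log2 fold change of -0.73. As above, 12% of all genes were called lower and 8.41% higher. Without KO replicate 2, an alternative chosen after seeing the data, 18 were lower and 3 higher, against 14.0% and 8.89% of all genes. In ALK over ALKKO 14 were lower and 3 higher, against 12.6% and 7.03%, and without KO replicate 2 these were 18 and 3, against 14.8% and 7.28%. In KO over Ctrl 0 were called, and 0 in ALKKO over Ctrl. There 6 and 0 of the pathway genes had an unadjusted p under 0.05 (1 in KO over Ctrl without KO replicate 2). Of all 16052 genes, 886 and 510 had such a p with all libraries. The 9 tested genes that control LCK and FYN held no call, and the largest changes were those of Lax1 (log2 fold change -1.52, adjusted p = 0.0576), Unc119 (1.06, adjusted p = 0.0608) and Sit1 (-0.74, adjusted p = 0.118). Of the 14 kinases and adaptors that work with LAT, 3 were lower. Tec, a kinase that activates phospholipase C, was at 13.6, 5.24 and 10.9 CPM in ALK and 58.8 to 80.6 in Ctrl (log2 fold change -2.85, SE 0.307, adjusted p = 0.000389). Its relative Txk (-1.73, adjusted p = 0.0193) and the adaptor gene Sh2d2a (-1.64, adjusted p = 0.00650) were lower as well.

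Of 12 negative regulators, 3 were lower and 1 was higher. Cblb, a ubiquitin ligase that restrains T-cell activation, rose from 59.0 to 66.8 CPM in Ctrl to 103, 322 and 363 CPM in ALK (log2 fold change 2.09, SE 0.444, adjusted p = 0.00696). Sla, which lowers the amount of receptor on thymocytes, was at 33.3, 83.7 and 342 CPM in ALK and 672 to 729 in Ctrl (-2.19, adjusted p = 0.0303), and Ubash3b was lower too (-1.43, adjusted p = 0.0244). Of the 8 genes of the downstream branches, 3 were lower and every log2 fold change was below 0. Rasgrp1, which turns diacylglycerol into RAS activation in thymocytes, was at 10.3, 10.8 and 42.3 CPM in ALK and 543 to 605 in Ctrl (-4.76, SE 0.574, adjusted p = 0.000559). Itpkb, a kinase of inositol phosphates, was at 73.4 to 151 CPM in ALK and 317 to 342 in Ctrl (-1.61, adjusted p = 0.00112).

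**Figure D4:**
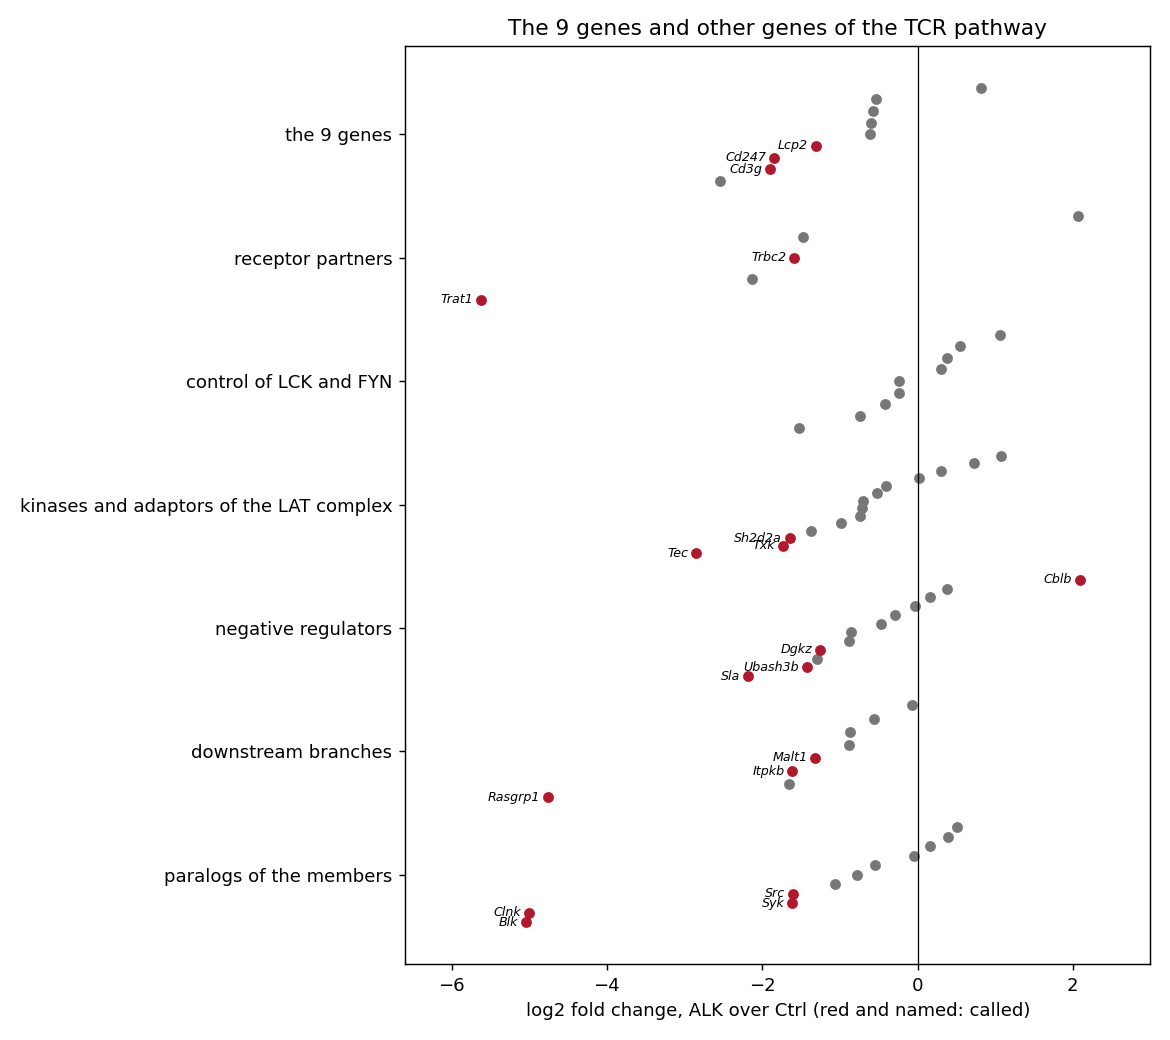
Log2 fold change of ALK over Ctrl (x) for the 9 genes and the tested genes of each pathway group (y), 1 point per gene, with called genes in red and named. Trat1, Rasgrp1, Blk and Clnk lie farthest to the left, and Cblb is the 1 red point on the right.

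Among the 11 relatives of the members, 4 were lower in ALK and 0 were higher, Src being the fourth (log2 fold change -1.61, adjusted p = 0.0262). Syk, which does the work of Zap70 in B cells and early thymocytes, was at 29.0, 31.0 and 39.6 CPM in ALK and 98.5 to 106 in Ctrl (log2 fold change -1.61, SE 0.548, adjusted p = 0.0482). KO replicate 2, with its high B cell markers, had 540.4 CPM. Blk, a SRC-family kinase of B cells and some T cells, had 0.336, 0 and 1.09 CPM in ALK and 13.9 to 20.0 in Ctrl (-5.04, adjusted p = 0.00611). Clnk, a relative of Lcp2, had 0.0672, 0 and 0 CPM in ALK and 0.858 to 1.43 in Ctrl (adjusted p = 0.00464).

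The balance of each member with its relative was taken as the log2 ratio of reads per base of exon within a library. Zap70 over Syk was at 4.04, 3.27 and 3.54 in ALK and 2.37 to 2.72 in Ctrl. Lck over Fyn was at 2.07, 3.04 and 3.36 in ALK and 3.99 to 4.40 in Ctrl. Cd247 over Fcer1g, the gamma chain of Fc receptors that can stand in for CD3 zeta, was at 0.46, 0.60 and -0.33 in ALK and 1.998 to 2.50 in Ctrl. These 3 ratios did not overlap between the groups, with differences of 1.03, -1.38 and -1.97. The exact two-sided permutation p was 0.1 for each, the smallest that 3 against 3 allows, and 0.167 adjusted over the 5 ratios. Lat over Lat2 differed by 0.28 (exact p = 0.7) and Lcp2 over Blnk by -0.69 (exact p = 0.3), both with overlap. The sign of the former rested on ALK replicate 2, without which it was -0.07.

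**Figure D5:**
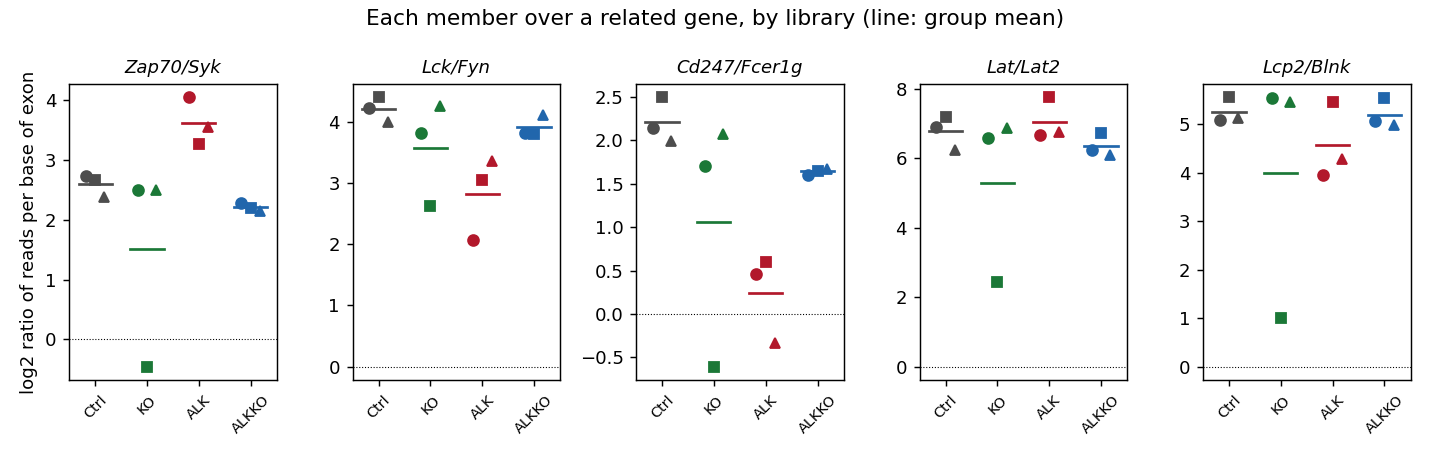
Log2 ratio of reads per base of exon of 5 members over a related gene (y) by group (x), with 1 symbol per library as in the plot of CPM and a line at the group mean. The ALK points lie above Ctrl for Zap70/Syk and below it for Lck/Fyn and Cd247/Fcer1g, and KO replicate 2 is the lowest KO point in each panel.

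To find genes with a like pattern, the centered log2 CPM of Cd3e, Cd3d, Cd3g and Cd247 was averaged in each of the 12 libraries, and 10350 other genes averaging 10 CPM or more were ranked by the root mean square difference from it. The nearest were Mtss1l (0.16), Rasl11b (0.21), Usp35 (0.23), Mier1 (0.23) and Pou6f1 (0.26), on the log2 scale. Mtss1l had a mean of 9.65 CPM in ALK and 40.5 in Ctrl. Among the CD3 genes Cd3g lay closest to the average (0.22) and Cd3d farthest (1.26), so the average resembles neither Cd3d nor Cd3e in the tumors. Of all pairs among the 9 genes, Cd3e and Lck had the most similar profile (0.15), followed by Lck and Lat (0.18) and by Cd3e and Lat (0.19). Cd3d and Fyn were the least similar pair (2.46 with the tumors and 0.41 without). The libraries share sequencing and tissue composition, so these are descriptions of 12 libraries.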

How the data were processed

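The 12 libraries, 3 mice in each of 4 groups, were grouped and numbered by the sample labels. The authors made stranded poly(A) libraries, trimmed single-end reads, aligned them to mm10 with STAR and deposited raw counts of reads per gene from HTSeq. Reads on several places or genes are in no gene's count there. Reads unassigned to a gene were 3.13% to 4.71% and ambiguous ones 2.68% to 5.19%. Both percentages leave out the alignments that were not unique, the largest uncounted class, at 10803959 to 17102259 per library. Picard 2.19.2 is named in the submitters' processing notes. Other versions, the annotation release and the strand setting are not given in the sources used here. Ages (19 to 31 wk) were taken from the labels, which differ here from the methods of the study. Of 50600 IDs, 50376 were matched to GENCODE M21 (GRCm38), and sequences came from RefSeq.

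The test was that of edgeR 4.0.16, run under R 4.3.3 on the counts (TMM, filterByExpr, 1 term per group over all 12 libraries, robust glmQLFit and glmQLFTest), which kept 16052 of the 28141 genes with a read. Since the mice are separate animals, the spread is that between mice. Libraries of a group always differed beyond counting noise (chi-square over its degrees of freedom 13.5 to 207). Ratios used 0.5 added counts and exact permutation tests. Alternatives were DESeq2 1.42.0 (test or size factors), other filters, a replicate block, age or sex as covariate, only the compared groups, no fold threshold, 5 added counts and each library left out. The members, pathway genes and markers were chosen with earlier results of these data known. Named besides the members were, per pathway group, the 3 genes with the largest absolute log2 fold change in ALK over Ctrl, the 5 nearest genes by profile, the relatives in the ratios, Dnmt1 and Alk. The result of 1 gene under this rule is not reported here. Trbc1, Trbc2, Rag1, Itgam, Thy1, Cd5, Src, Gm16565 and Pou2f1 were named after their values were seen. So were Cd2, Gzma, Ncr1, Klrb1c, Eomes, Klre1, Col1a1, Col1a2 and Dcn. Fyb1 and Fyb are 1 gene, and Lime1 was not tested after the filter. Figures were drawn with matplotlib 3.10.9.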

Additional observations from a re-analysis of the deposited data

Results flagged for a closer look

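The difference in log2 level of NPM-ALK+ over other mice was unequal between the Dnmt1 genotypes, by the interaction term of the edgeR fit, for 1 of the 9 genes and for 7 of the 18 named pathway genes. The term called 5.62% of all genes lower and 3.31% higher. The pathway genes were named for their size in ALK over Ctrl, which is part of this term, so their number is a description and supports nothing.

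These were Cd247 (log2 difference -1.94, adjusted p = 0.0124), Trat1 (-5.86, adjusted p = 0.00945), Txk (-2.57, adjusted p = 0.0340), Tec (-2.80, adjusted p = 0.00488), Sh2d2a (-1.80, adjusted p = 0.0406), Cblb (2.35, adjusted p = 0.0380), Rasgrp1 (-4.73, adjusted p = 0.00582) and Itpkb (-1.59, adjusted p = 0.0148). Without KO replicate 2, chosen after seeing the data, Txk (-2.45, adjusted p = 0.0540), Sh2d2a (-1.64, adjusted p = 0.0599) and Cblb (1.83, adjusted p = 0.0609) no longer passed. Cd247 (-1.68, adjusted p = 0.00111), Trat1 (-5.53, adjusted p = 0.0106), Tec (-2.99, adjusted p = 0.00390), Rasgrp1 (-4.47, adjusted p = 0.00640) and Itpkb (-1.54, adjusted p = 0.0212) passed again. The tumors are all in 1 of the 4 groups, so tumor and genotype cannot be told apart.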

How the results depend on the processing

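Of 828 log2 fold changes of the 9 genes under alternatives, 775 kept their direction and their side of the call, 17 lost a call, 10 gained one and 26 changed sign. Over all genes, 3281 were called in ALK over Ctrl, against 1756 with at least 10 counts in every library and 2130 without Ctrl replicate 1. The interaction called 1433 genes, against 2486 with DESeq2, 667 with at least 10 counts and 560 to 2219 over the left-out libraries. Cd247 was called in ALK over Ctrl, in ALK over ALKKO and in the interaction under every alternative run. In ALK over Ctrl the call of Cd3g was lost with no low-count filter (adjusted p = 0.0524), with age as a covariate (adjusted p = 0.0550) and with only the compared groups (adjusted p = 0.0812). In ALK over ALKKO the same settings gave Cd3g adjusted p = 0.0865, 0.0864 and 0.126, and only the compared groups gave Lcp2 adjusted p = 0.0539.

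Leaving out 1 library at a time gave 2 to 4 called members in ALK over Ctrl (2130 to 3787 over all genes) and 2 to 3 in ALK over ALKKO (2251 to 3719). It gave 1 to 4 in the interaction (560 to 2219 over all genes) and 0 in the comparisons of thymi (0 to 31). With only the compared groups 1 member was called in ALK over ALKKO (2049 over all genes). In the interaction 2 were called with DESeq2 (2486 over all genes) and 2 with age as a covariate (1467), in place of 1 (1433).

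With the replicate block 3 genes were called in ALK over Ctrl, 3 in ALK over ALKKO and 1 in the interaction. The numbers showed no clear pairing of the samples (correlations of same-numbered deviations -0.130 to 0.440, and 5 of 12 libraries correlated best with their own number). This check cannot exclude a shared batch or matched ages. The block changed no call of a member.

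The values that changed sign had no call. Fyn in ALKKO over Ctrl was at -0.00388 with DESeq2, -0.00388 with its size factors, -0.00832 without a filter and -0.0796 to 0.0622 over the left-out libraries, and Fyn in KO over Ctrl was at -0.0144 with sex as a covariate and -0.0117 to 0.19 over left-out libraries. In ALKKO over KO, sex as a covariate gave -0.0315 for Cd3e, -0.0203 for Cd3d, -0.22 for Cd3g, -0.19 for Cd247, -0.0921 for Lck, -0.0365 for Zap70, -0.0961 for Lcp2, 0.0181 for Fyn, and age gave -0.00242 for Lcp2. Left-out libraries gave -0.0329 to 0.45 for Cd3e, -0.021 to 0.36 for Cd3d, -0.23 to 0.27 for Cd3g, -0.19 to 0.38 for Cd247, -0.093 to 0.39 for Lck, -0.0361 to 0.27 for Zap70, -0.0959 to 0.26 for Lcp2, -0.19 to 0.0194 for Fyn. Lat over Lat2 ranged from -0.0724 to 0.49. KO replicate 2 is the only female, so the sex covariate sets that library apart. The fit with sex and the fit without KO replicate 2 are therefore not separate alternatives, and a sex effect cannot be told apart from that library. The cause of these changes was not tested. Depth limited none of the 9 genes.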
